A study of Equus caballus with 20 samples.

Results

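Extracellular vesicles of follicular fluid were compared between mare follicles about to ovulate and follicles at deviation, the point at which a dominant follicle outgrows the others. The comparison used 4 libraries of impending ovulation (follicles chosen by signs of ovulation, with no diameter given) and 4 libraries of deviation (22 to 25 mm), out of 20 small RNA libraries from 5 stages of follicle growth. All stages came from mares aged 8 to 14 years with a normal reproductive tract. In every mare the follicles of 6 mm or more had been ablated on days 10 to 11 of the cycle, so that a new wave grew, and fluid was aspirated through the vaginal wall. The design text names 19 mares, and no label says which library came from which mare, so the p-values cover only the spread among these libraries, part of which may be technical. Of 686 horse miRNA names in the table, 298 were above 0 in any of the 8 libraries, and the 214 above 0 in at least 4 of them were compared. Of these 214 members 133 were above 0 in all 8 libraries.

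MicroRNAs are short RNAs that guide Argonaute proteins to messenger RNAs through a seed near their 5′ end and lower the output of those messages. Granulosa, cumulus and theca cells of a follicle, and blood plasma that filters into the antrum, can all contribute vesicles to follicular fluid. Luteinizing hormone (LH) acts on the follicle after deviation, and its surge starts ovulation and the change of granulosa cells into luteal cells. In such fluid, fewer vesicles from a cell type and less of a miRNA per vesicle cannot be told apart.

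Values are scaled reads, the authors' normalised values, of which 1 read was worth between 10.6 and 28.5 in the 8 libraries. Impending ovulation libraries 1 to 4 held 56866, 29862, 80013 and 88126 reads, and deviation libraries 1 to 4 held 71805, 75035, 74480 and 94917. Impending ovulation 2 was the shallowest of the 8. Reads outside the 214 members came to 356 of 571104. The rule left out 84 miRNAs with reads in 1 to 3 libraries. Those in exactly 3 libraries (19 miRNAs) had a median of 8 reads in all, and those just inside the rule, in exactly 4 (20 miRNAs), a median of 9. Of the members 18 were above 0 in at least 3 libraries of one stage and at most 1 of the other, so a difference was built into their selection. A table of miRNAs holds no protein marker of vesicles. Of the granulosa miRNAs, miR-21 and miR-378 were above 0 in all 8 libraries, miR-224 in 7, and miR-383 was listed at 0 in all.

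One miRNA passed the test: miR-204b rose in vesicles of impending ovulation. It belongs to the family of miR-204 and miR-211, which in human and mouse lie in introns of TRPM channel genes and are abundant in retinal pigment epithelium and choroid plexus. Impending ovulation libraries 1 to 4 had 731, 1795, 457 and 372 scaled reads of miR-204b, against 52.6, 28.1, 110 and 23.7 in deviation libraries 1 to 4. Every library of impending ovulation lay above every library of deviation. The means were 839 ± 656 and 53.7 ± 39.9 scaled reads (SD, n = 4 each), with 183 and 15 reads behind them. The fitted change was 15.1-fold (95% interval 5.05 to 45.3; log2 3.92 ± 0.76 SE, limma adjusted p = 0.00875), on the log2(value + 1) scale. It was the only call among 214 tested miRNAs (0.467%). At an unadjusted p under 0.05, limma had 31 miRNAs (14.5%), of which 14 were higher and 17 lower at impending ovulation.

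The call of miR-204b was kept in 22 of 26 alternatives, and its log2 change stayed between 3.46 and 4.35. It was lost without impending ovulation 2 (log2 3.46, limma adjusted p = 0.0708), without deviation 4 (3.62, 0.0534), without both shallowest libraries of the series (3.46, 0.0727) and in a fit restricted to the 8 libraries (3.92, 0.0540). Its relative miR-211 was scarce, at 29.8, 57.0, 0 and 159 scaled reads at impending ovulation against 0, 14.1, 31.5 and 83.0 at deviation (limma adjusted p = 0.864). In the other stages miR-204b ranged from 55.0 to 186 scaled reads at predeviation, 74.1 to 626 at postdeviation and 91.5 to 365 at preovulatory, so postdeviation libraries reached into the range of impending ovulation. Mature miRNAs that differ by a few bases, such as those of the let-7 family, miR-99a and miR-100, miR-10a and miR-10b, or miR-92a and miR-92b, can share reads, and the sources do not state how such reads were assigned.

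**Figure D1:**
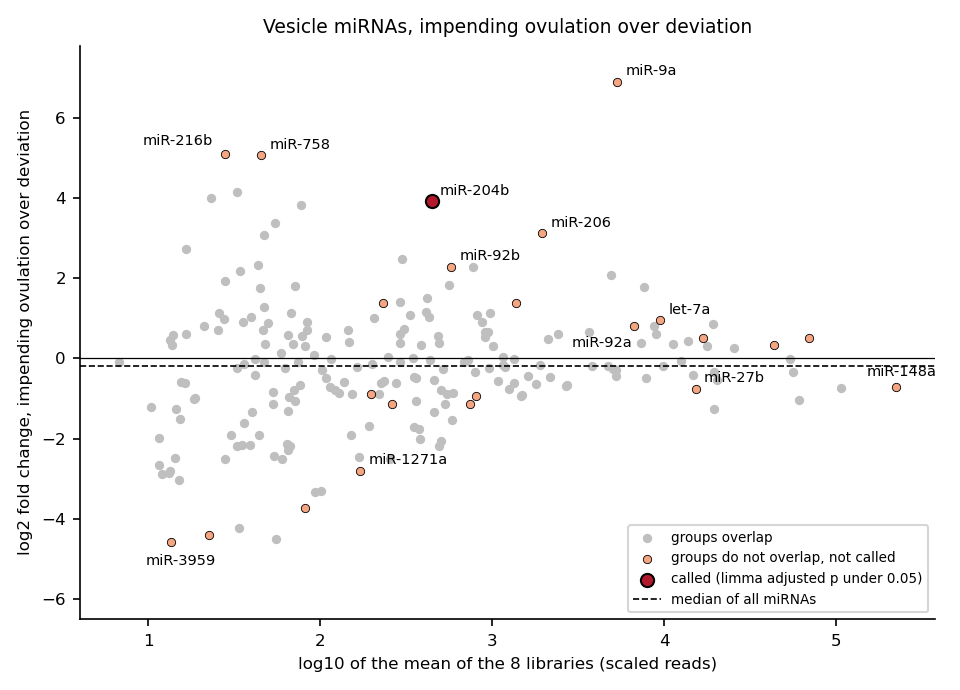
Each point is 1 of the 214 miRNAs. The x axis is the log10 of its mean over the 8 libraries in scaled reads, and the y axis is the fitted log2 fold change of impending ovulation over deviation. The red point is miR-204b, orange points are other miRNAs whose groups of 4 libraries do not overlap, and the dashed line is the median of all miRNAs at -0.20.

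The fold changes of all miRNAs were not centred on 0. Their median was -0.20 on the deposited scale and 0.02 with equal library totals, a shift of 0.22, and 88 of 214 had a higher fitted value on the deposited scale against 108 with equal totals. Single changes near 0 are therefore read against this shift. The 4 libraries of one stage did not overlap with those of the other for 23 miRNAs (10.7%), 13 of them higher (6.07%) and 10 lower (4.67%). Of the 133 miRNAs above 0 in all 8 libraries, 10 were higher and 7 lower in this sense. Precision was limited: 95% intervals of log2 changes had a median half-width of 2.09 over the 214 and 1.20 over the 133.

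After miR-204b, the next 10 miRNAs shared a limma adjusted p of 0.0796 and did not pass. Of these, 7 had higher fitted values at impending ovulation, namely miR-206, let-7a, miR-9a, miR-758, miR-92b, miR-155 and miR-92a. The other 3, miR-1271a, miR-3959 and miR-27b, had lower ones.

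MiR-206, a miRNA of skeletal muscle, had 2819, 8664, 1244 and 1402 scaled reads at impending ovulation, against 684, 380, 300 and 94.8 at deviation. The groups did not overlap, and impending ovulation 2 was again the highest (log2 3.12 ± 0.84, limma adjusted p = 0.0796). The other miRNAs of striated muscle did not share this pattern. MiR-1 of heart and skeletal muscle was at 447, 1881, 10639 and 350 against 1118, 4147, 646 and 190 scaled reads, and miR-133a at 44.7, 114, 12.7 and 53.1 against 250, 56.2, 47.3 and 35.6 (limma adjusted p = 0.784 and 0.752). Neither had groups that stood apart. MiR-206 passed in 4 of 26 alternatives: with equal library totals, with array weights, with DESeq2 and without impending ovulation 4. It did not pass with edgeR under either scaling.

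MiR-9a is named after miR-9, a miRNA of neural progenitors in other vertebrates. Its values were 8306, 28044, 3187 and 2220 scaled reads at impending ovulation, against 0, 942, 142 and 59.3 at deviation. This fitted gap was the widest among miRNAs with a mean of at least 1000 scaled reads over the 8 libraries (log2 6.90 ± 2.05, limma adjusted p = 0.0796). Its size moved with the setting, and deviation 1 held 0 reads: the log2 change was 4.99 without deviation 1, 8.28 without deviation 2, 6.00 at a pseudocount of 10 and 5.19 with edgeR. DESeq2 called it (adjusted p = 0.0135), edgeR with TMM did not (0.136). Impending ovulation 2 had the highest value of miR-204b, miR-206 and miR-9a alike.

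Let-7a, a repressor of proliferation genes and of LIN28, differed less but with a tight spread. It had 15659, 12996, 11084 and 10238 scaled reads at impending ovulation, against 7389, 6720, 6321 and 5309 at deviation. All 4 libraries lay above all of deviation, 1.93-fold in the fit (95% interval 1.32 to 2.83; log2 0.95 ± 0.27, limma adjusted p = 0.0796). MiR-92a, the most abundant member of the miR-17-92 cluster here, had 10469, 9120, 8252 and 6308 scaled reads against 4378, 4372, 4918 and 5593 (1.75-fold, 95% interval 1.23 to 2.51; log2 0.81 ± 0.25). MiR-92b, which shares the seed of miR-92a and is encoded elsewhere, had 1670, 912, 876 and 414 against 210, 253, 189 and 94.8 scaled reads (log2 2.29 ± 0.70). Both were higher in 4 of 4 libraries. DESeq2 called let-7a (adjusted p = 0.0131), miR-92a (0.0325) and miR-92b (0.0109).

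The immune miRNA miR-155, of activated lymphocytes and macrophages, had 2237, 1026, 1714 and 297 scaled reads at impending ovulation, against 171, 169, 363 and 201 at deviation. Only impending ovulation 4 lay within reach of deviation (log2 2.27 ± 0.70, limma adjusted p = 0.0796). Without that library the adjusted p was 0.0290, but it was picked out by these same values, so this is no support. With that library kept, DESeq2 and limma with array weights called miR-155, and edgeR under either scaling did not. MiR-758 of the imprinted DLK1-DIO3 cluster had 149, 28.5, 25.4 and 149 scaled reads against 13.1, 0, 0 and 0. These rest on 27 reads against 1, and their ratio, corrected for depth, was 29.0 with a counting interval of 4.77 to 1186. The libraries of impending ovulation alone met the rule for members here, so a difference was built into its selection.

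On the lower side, miR-27b, encoded beside miR-23b and miR-24, had 11050, 9433, 11668 and 13285 scaled reads at impending ovulation, against 17079, 19091, 21755 and 18581 at deviation. The groups did not overlap, with a fit 1.69-fold lower (log2 -0.76 ± 0.24, limma adjusted p = 0.0796). With equal library totals the log2 change was -0.52. MiR-23b had 14.9, 0, 38.1 and 95.6 against 78.9, 155, 236 and 190 scaled reads (log2 -3.30, adjusted p = 0.106), where impending ovulation 4 overlapped with deviation.

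MiR-1271a, whose human counterpart miR-1271 has the seed of miR-96, had 179, 28.5, 38.1 and 10.6 scaled reads against 342, 267, 189 and 320, lower in 4 of 4 libraries (log2 -2.80 ± 0.83). MiR-139-5p, from an intron of PDE2A, had 671, 655, 394 and 244 against 1039, 1153, 1040 and 782 (log2 -1.13 ± 0.38, limma adjusted p = 0.103), also with no overlap. A few scarce miRNAs were present in one stage only. MiR-3959 had 0 reads at impending ovulation against 8 at deviation, at least 2.49-fold lower (limma adjusted p = 0.0796) when the 4 empty libraries together are set at 3 reads. MiR-216b, a miRNA of the exocrine pancreas, had 11 reads at impending ovulation against 0 at deviation and was at least 3.93-fold higher (adjusted p = 0.103). Both met the rule for members through a single stage. MiR-376a had 1 read against 12, a ratio 11.2-fold lower (counting interval 1.66 to 478, adjusted p = 0.106). It was above 0 in all 4 deviation libraries, which alone met the rule for members.

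**Figure D2:**
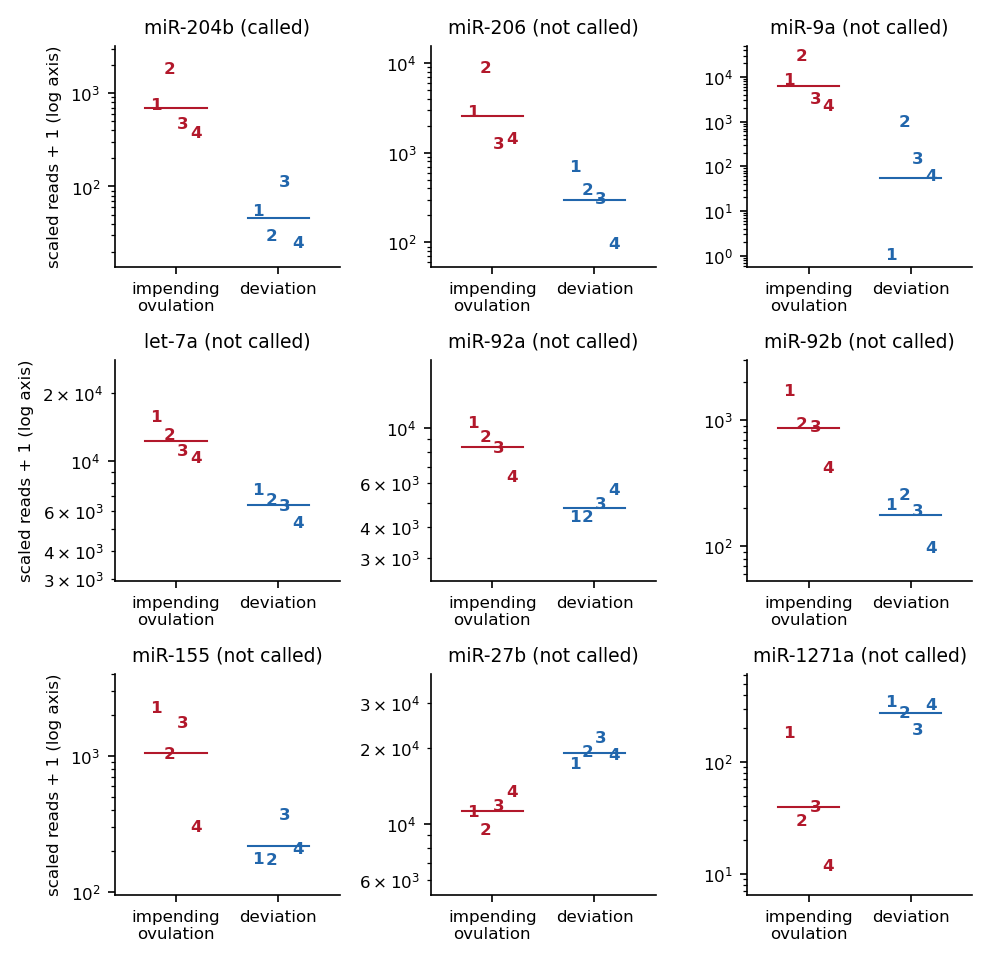
Scaled reads plus 1 on log axes for 9 miRNAs, with impending ovulation in red on the left and deviation in blue on the right. Digits are the replicate numbers and horizontal lines the means on the log scale. Groups stand apart in 8 of the 9 panels, and in the panel of miR-155 impending ovulation 4 lies at 297, below deviation 3 at 363.

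The most abundant cargo was spread more evenly at impending ovulation. The 10 most abundant miRNAs of a library held 68.0%, 63.1%, 66.3% and 68.2% of the values at impending ovulation, against 72.2%, 72.5%, 74.8% and 75.8% at deviation. The groups did not overlap, with means of 66.4% ± 2.35 and 73.8% ± 1.76 (SD, n = 4 each). An exact two-sided permutation test over 70 arrangements gave p = 0.0286, the smallest it can give, and 0.114 after adjustment over 4 library measures. The number of miRNAs detected was 195, 171, 207 and 229 against 209, 200, 224 and 228 (exact permutation p = 0.343). After thinning each library to the depth of the shallowest, 182 ± 12.5 and 184 ± 6.47 miRNAs would be expected.

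MiR-148a, the most abundant miRNA and a repressor of DNMT1 in other mammals, had 168561, 143183, 211288 and 156324 scaled reads at impending ovulation, against 242743, 361034, 242927 and 265173 at deviation. It was lower in 4 of 4 libraries (log2 -0.71 ± 0.33, limma adjusted p = 0.324), but as a share of the library the groups met, at 18.6% ± 2.10 and 26.1% ± 5.83. MiR-192, abundant in liver, gut and kidney, had 84974, 86126, 74958 and 78863 scaled reads against 64423, 53816, 49941 and 62723 and was higher in all 4 libraries (1.41-fold, log2 0.50 ± 0.31, limma adjusted p = 0.415). By mean share miR-192 took second place at impending ovulation, with 8.99% ± 1.32 of the values against 5.44% ± 1.07 at deviation. In impending ovulation 3 and 4 miR-21 stood above it.

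MiR-21, which LH raises in granulosa cells of other mammals, spread widely within both stages. Its values were 42636, 39529, 76684 and 149687 scaled reads at impending ovulation, against 100644, 36144, 227935 and 178299 at deviation, and the groups overlapped (log2 -0.73 ± 0.75, limma adjusted p = 0.621). MiR-132, also raised by LH in granulosa cells, was scarce, with 283, 0, 63.5 and 74.3 against 26.3, 84.4, 15.8 and 11.9 scaled reads (adjusted p = 0.937). MiR-99a had 53478, 29127, 41186 and 28684 against 85748, 30802, 100923 and 119225 scaled reads. Only deviation 2 kept its groups from standing apart (log2 -1.03 ± 0.38, limma adjusted p = 0.133). Without that library it passed (-1.46, 0.0258), but the library was picked out by these same values, so the pass is no support.

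Of the other abundant miRNAs, miR-423-5p was higher in 4 of 4 libraries, with 5.40% ± 0.922 of the values at impending ovulation and 3.59% ± 0.308 at deviation (log2 0.34, limma adjusted p = 0.509). MiR-22 was outside the 12 most abundant and also higher in 4 of 4, at 19755 ± 3707 against 13851 ± 2811 scaled reads (log2 0.52, adjusted p = 0.415). MiR-10a and miR-10b of the HOX loci, miR-215, miR-24, miR-100 and miR-486-5p, an erythroid miRNA, had overlapping groups, with log2 changes of -0.02, -0.35, 0.25, -0.33, 0.85 and -0.54. Libraries within deviation were on the whole more alike than libraries of different stages, while those within impending ovulation differed little from pairs between the stages. Median correlations of log2 values were 0.93 within deviation, 0.889 within impending ovulation and 0.8786 between the stages. Impending ovulation 4 correlated more with deviation 3 (0.9049) than with any other library of its own stage (at most 0.8905). Pearson correlations of log2 values across the 133 miRNAs, which are not independent replicates, ran from 0.875 to 0.927 over 6 pairs within impending ovulation, 0.893 to 0.961 over 6 pairs within deviation and 0.838 to 0.910 over 16 pairs between them.

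**Figure D3:**
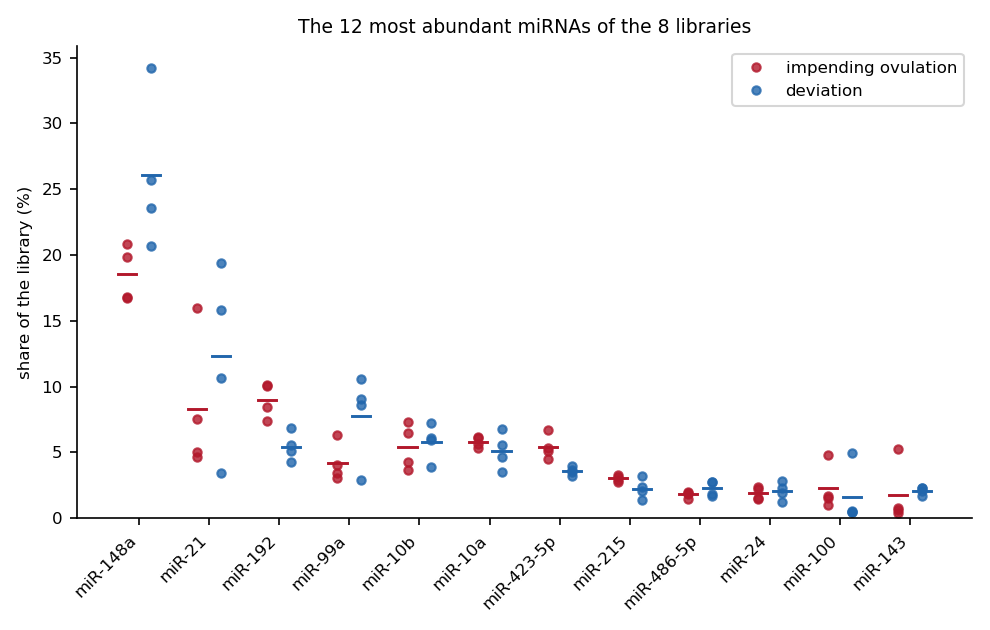
Share of each library, in percent of its summed values, for the 12 most abundant miRNAs of the 8 libraries. Points are libraries and lines means, in red for impending ovulation and in blue for deviation. MiR-148a averages 18.6% at impending ovulation and 26.1% at deviation, and miR-192 averages 8.99% and 5.44%.

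Grouped by family, cluster or cell of origin, the members did not all tilt one way. Apart from miR-204b in its own pair, 0 members of these lists passed in limma in either direction. For comparison, edgeR called 1 of the 214 tested miRNAs under either scaling, miR-204b. DESeq2 called 8, all higher and all members of these lists, so the count of passing members depends on the tool. The values that follow are therefore descriptions, each set beside the median of all miRNAs of -0.20.

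Neural and endocrine miRNAs had the highest median of the lists with at least 3 members, at 1.77 over 5 members, all with higher fitted values. They took 3.40% to 6.38% of a library at impending ovulation against 1.25% to 2.30% at deviation. Besides miR-9a, the list holds miR-7, a miRNA of endocrine and neural cells, with 1268, 2536, 33480 and 14390 against 1078, 844, 4398 and 2832 scaled reads (limma adjusted p = 0.415). The libraries high in miR-7 (3 and 4) were not those high in miR-9a (1 and 2). MiR-128, the most abundant of the list, was at 19451 ± 3320 and 16083 ± 4737 (log2 0.30, adjusted p = 0.615). Of the remaining members, miR-218 lay above all of deviation in impending ovulation 3 only, and miR-129a-5p was called by DESeq2 but not by limma. The list has 13 names, which matched 11 entries of the table. Only 5 of these met the rule for members, and miR-153 was listed at 0 in all 8 libraries.

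The miR-183 cluster, known from sensory organs and epithelia, had a median of 1.08, and its share was 0.200% to 0.538% against 0.0585% to 0.159%. MiR-183 had 1342, 2280, 2146 and 2092 scaled reads at impending ovulation against 368, 1139, 993 and 723 at deviation, with no overlap (2.60-fold, log2 1.38 ± 0.47, limma adjusted p = 0.106). MiR-182 was above all of deviation in 3 of 4 libraries (log2 1.08, adjusted p = 0.361), while miR-96 was at 0, 57.0, 140 and 765 against 13.1, 14.1, 126 and 71.1 scaled reads (adjusted p = 0.908).

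In the growth-promoting miR-17-92 cluster and its paralogs, 8 of 10 members had higher fitted values, with a median of 0.998 and shares of 1.44% to 2.19% against 0.924% to 1.397%. With quantile normalization 7 of the 10 were higher. MiR-20a had 328, 370.5, 1447 and 1359 against 78.9, 127, 489 and 308 scaled reads (limma adjusted p = 0.324), and miR-25 was at 4622 ± 838 against 5935 ± 2460 (log2 -0.30, adjusted p = 0.727).

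The let-7 family, which restrains growth in differentiated cells, took 5.65% to 6.04% of a library at impending ovulation, against 3.35% to 4.43% at deviation, with no overlap. Its 7 members had a median of 0.55, with 5 higher. Let-7f was at 10926 ± 3814 against 6629 ± 3343 scaled reads (log2 0.82, limma adjusted p = 0.324), let-7g at 16115 ± 6702 against 11418 ± 3504 (0.44, 0.509) and let-7c at 12566 ± 2860 against 16728 ± 4480 (-0.41, 0.512).

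Liver and plasma miRNAs had shares of 11.2% to 15.4% against 6.05% to 10.7% and a median of 0.38 over 4 members. MiR-192 led them, miR-122 of hepatocytes was at 10995 ± 4641 against 7006 ± 2637 scaled reads (limma adjusted p = 0.509), and miR-194, transcribed with miR-192 in human and mouse, had a fitted value on the other side (log2 -1.33, adjusted p = 0.342). The list marker miR-885-3p was listed at 0 in all 8 libraries. The miR-200 family of epithelial cells had a median of 0.39 over 5 members, with miR-200b at 0.49, miR-200c at 0.66 and miR-200a at -0.63 (adjusted p 0.572 to 0.618).

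The miR-34 and miR-449 family stood at 0.93 (4 members), the miR-15-16 and miR-103-107 families at 0.47 (7), the miR-30 family at 0.18 (4; -0.03 with quantile normalization) and striated muscle at -0.09 (5; 0.02 with equal totals). The 23-27-24 clusters stood at -0.33, with 5 of 5 members lower on the deposited scale, 4 of 5 with TMM scaling and 3 of 5 with equal totals. The miR-26 and miR-148 group was at -0.36 (4 members, miR-26a at 0.36), and the miR-99-100-125-10 group at -0.40 (8). Among pairs, miR-221 and miR-222 had a median of -0.58, with miR-222 at 548 ± 115 against 1055 ± 183 scaled reads and no overlap (log2 -0.95, limma adjusted p = 0.324). MiR-181b, at 335 ± 106 against 128 ± 34.8, did not overlap either (log2 1.38, adjusted p = 0.329), in a pair with a median of 0.41. The miR-204-211 pair was at 2.31. The miR-29 family was at -0.12 (2; 0.08 with equal totals), the granulosa regulators miR-224 and miR-378 at -0.63 and the LH-responsive pair at -0.18 (0.02 with equal totals). Of the miR-506 family 4 names were in the table, at up to 0.0107% of a deviation library, and 0 of them met the rule for members. The hypoxia list, miR-210 alone, had 0 names in the table.

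The list of the DLK1-DIO3 imprinted cluster, a set of miRNAs of development and of the placenta, had 26 members matched by name, with a median of -0.51. Of these 17 had lower and 9 higher fitted values, a share similar to the 126 lower among all 214 tested miRNAs. The listed name miR-329 did not match miR-329a (log2 -3.32) and miR-329b (-1.15, no overlap), so these tested miRNAs are left out of the counts and the median. The abundant miRNAs of the list stayed within the spread of the libraries. MiR-127 was at 4595 ± 1845 against 2756 ± 381 scaled reads (log2 0.66, limma adjusted p = 0.342), miR-323-3p at 1299 ± 508 against 646 ± 373 (1.12, 0.329), miR-409-3p at 6579 ± 2159 against 9176 ± 2738 (-0.50, 0.639) and miR-543 at 1867 ± 669 against 2466 ± 438 (-0.47, 0.618). The X-linked miR-424 cluster held at most 0.0242% of any of the 8 libraries, with a median of -0.92 over 6 members.

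**Figure D4:**
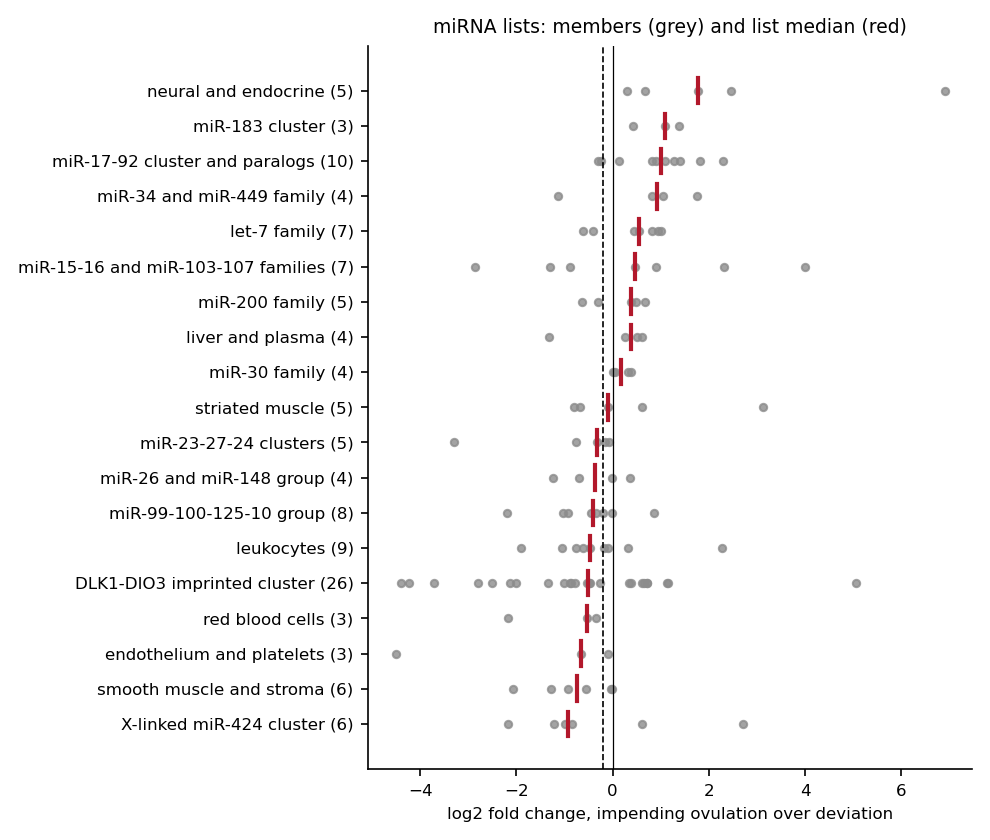
Log2 fold change of impending ovulation over deviation on the x axis for the members (grey points) of each list with at least 3 members, with the number of members in brackets. Red bars are list medians, the solid line is 0 and the dashed line is the median of all 214 miRNAs at -0.20. The neural and endocrine list has the highest median at 1.77 and the X-linked miR-424 cluster the lowest at -0.92.

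Markers of other cells were examined for the fluid as a whole. Smooth muscle and stroma miRNAs had a median of -0.75 over 6 members, all lower on the deposited scale, 5 of 6 with quantile normalization and 4 of 6 with the other scalings. MiR-143 of smooth muscle had 5055, 6925, 4190 and 49414 scaled reads at impending ovulation, against 19485, 24546, 19658 and 26284 at deviation. Impending ovulation 4 stood apart from the other 3 libraries of its stage. MiR-145, its cluster partner, had 74.6, 57.0, 63.5 and 1094 against 263, 1181, 300 and 1007, again with impending ovulation 4 the highest of its stage. Without impending ovulation 4, miR-143 (log2 -2.08, limma adjusted p = 0.0413) and miR-145 (-3.08, 0.0126) passed, among 10 miRNAs in all, against adjusted p of 0.329 and 0.170 with it. That library was picked out by these same values, so the 2 passes are no separate support. The smooth muscle and stroma list took 0.734% to 5.53% of a library at impending ovulation and 1.85% to 2.77% at deviation. Its part in the differences between these libraries was not tested. MiR-199a-3p of stroma was at 1113 ± 759 against 1848 ± 730 (adjusted p = 0.361).

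Most blood markers had lower fitted values, as did 126 of all 214 tested miRNAs (106 with equal totals). The red blood cell list had a median of -0.54 over 3 members, and a share of 1.53% to 2.08% against 1.84% to 2.97%. MiR-451 was at 742 ± 438 against 840 ± 326 scaled reads (limma adjusted p = 0.839). MiR-486-3p averaged 233 ± 208 against 747 ± 393 (log2 -2.18, adjusted p = 0.291). Endothelium and platelets had a median of -0.66 (3 members, 2 of 3 lower with equal totals or TMM scaling). Of these miR-126-3p was at 2155 ± 769 against 3307 ± 858 (adjusted p = 0.484), and miR-126-5p had 4 reads, all in impending ovulation 4, against 30 (log2 -4.51, adjusted p = 0.103). Without that library its adjusted p was 0.0315, but the removal leaves 0 reads at impending ovulation, so this pass is no separate support. MiR-126-5p was also above 0 in all 4 deviation libraries, which alone met the rule for members. Of 9 leukocyte members 7 were lower, with a median of -0.48, and 5 of 9 with equal totals. Apart from miR-155, they included miR-146b-5p of NF-kB feedback at 926 ± 217 against 1593 ± 545 (adjusted p = 0.415) and miR-342-3p of lymphocytes at 274 ± 258 against 446 ± 141 (0.366). The leukocyte share was 0.630% to 1.15% against 0.650% to 0.856%. MiR-223 is counted both in the leukocyte list and in that of endothelium and platelets. Of stratified epithelium, miR-205 was at 196 ± 168 against 505 ± 121 (log2 -1.72, adjusted p = 0.407), and the list of 2 had a median of -0.96.

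Values in the stages between show where the levels lay on the way. MiR-92a averaged 6627 scaled reads at postdeviation and 8030 at preovulatory, between the 4816 ± 578 of deviation and the 8537 ± 1744 of impending ovulation. Its preovulatory libraries, at 7301 to 9628, already lay above all libraries of deviation. Let-7a averaged 7697 and 10614 in these 2 stages, again with preovulatory libraries (9635 to 11499) above all of deviation. At predeviation let-7a averaged 8683, above deviation, and its libraries (5608 to 11384) reached into the range of impending ovulation. For miR-27b the averages of 15705 and 16077 lay between those of deviation and impending ovulation, and preovulatory libraries (14566 to 18362) lay above all of impending ovulation. MiR-9a was split within stages, from 21.2 to 9750 at postdeviation and from 176 to 16242 at preovulatory. MiR-206 ranged from 254 to 3640 at postdeviation and from 441 to 1862 at preovulatory.

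**Figure D5:**
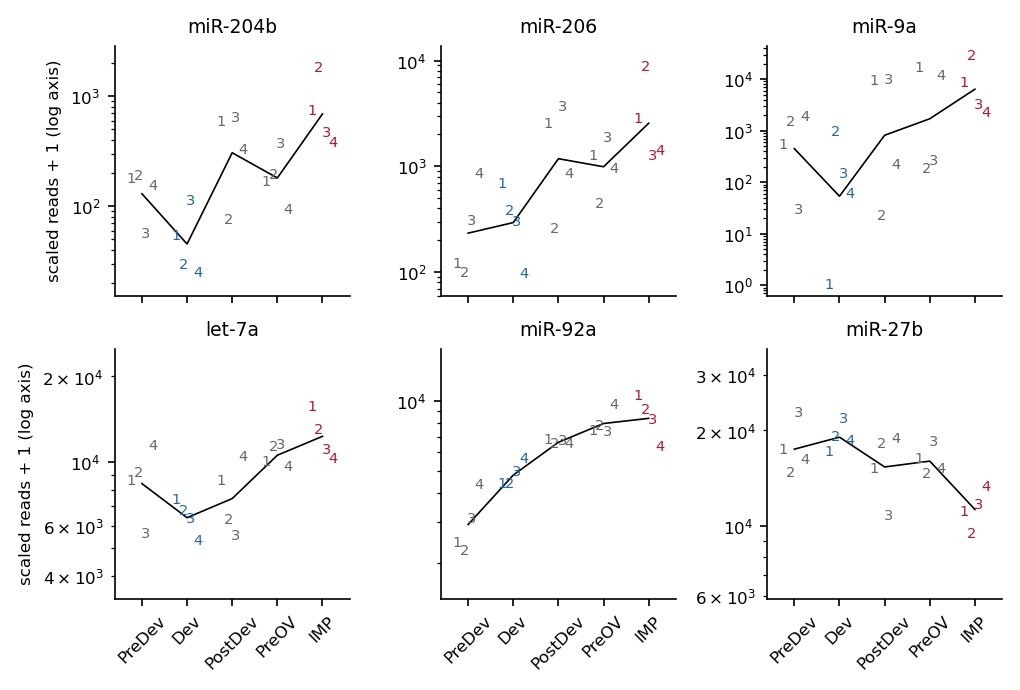
Scaled reads plus 1 on log axes for 6 miRNAs over the 5 stages of follicle growth, from predeviation (PreDev) through deviation (Dev, blue), postdeviation (PostDev) and preovulatory (PreOV) to impending ovulation (IMP, red). Digits are replicate numbers and the line joins the means on the log scale. MiR-92a is lowest at predeviation and averages 8537 at impending ovulation, while miR-9a varies from 21.2 to 9750 within postdeviation.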

How the data were processed

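Vesicles were pelleted by ultracentrifugation and libraries made with a TruSeq small RNA kit, per the labels' protocols. The submitters' processing notes name bcl2fastq, Bowtie2 2.2.2, DESeq2 and the build EquCab3.0, with no role. Which miRNA annotation was counted is not stated there. The deposited values, a read signal that the authors named CPM, are whole reads times a factor per library: 100% were whole multiples of the smallest value of the column (tolerance 1e-06), and column sums had a geometric mean of 1000000.

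From these values limma 3.58.1 (R 4.3.3) was fitted with an intensity trend to log2(value + 1) over all 20 libraries, with a mean per stage. P-values are two-sided and adjusted by Benjamini-Hochberg over the 214 miRNAs, with a threshold of 0.05. edgeR 4.0.16 and DESeq2 1.42.0 were run on recovered reads of 19 libraries, since the postdeviation 2 column held 93 low values, under the 100 needed to check its step. Scripts were tested on simulated data.

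The miRNAs named are the 16 of smallest p, the 12 most abundant, those of either stage alone, up to 6 in each direction with a mean of at least 1000 scaled reads and no overlap, and up to 4 members per list. Of the 96 so chosen 63 are given with values. Members and lists were chosen with earlier results of these data known. Counting intervals (95%) and floors (3 reads) cover counting error only. Library measures were compared by exact permutation over 70 arrangements. No mature sequences were used here.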

Additional observations from a re-analysis of the deposited data

Results flagged for a closer look

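In 10 of 68 groups of 4 values examined, 1 library lay far from the other 3 (gap over range past Dixon's 95% limit). That limit assumes normal values, which scaled reads are not. A group at 0 in the other 3 libraries passes it whatever the remaining value, so the count is a description without a chance rate. At impending ovulation, replicate 3 had 49172 scaled reads of miR-100 against 8724 to 14250 in the others, and replicate 1 had 179 of miR-1271a against 10.6 to 38.1. Replicate 4 of impending ovulation had 49414 of miR-143 against 4190 to 6925, 42.5 of miR-126-5p against 0 in the other 3 and 10.6 (1 read) of miR-376a against 0. At deviation, replicate 2 had 52283 of miR-100 against 4746 to 6306 and 942 of miR-9a against 0 to 142. Deviation 3 had 363 scaled reads of miR-155 against 169 to 201, and deviation 1 had 13.1 (1 read) of miR-758 against 0. Deviation 4 was deeper than the others, with 94917 reads against 71805 to 75035.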

How the results depend on the processing

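Depth limits the scarce miRNAs, of which 1 read is worth 10.6 to 28.5 scaled reads, and no mare, batch or date can be separated. The count of 1 call (1 higher, 0 lower) became 4 (all higher) with equal library totals, 2 (both higher) with quantile normalization, 8 (all higher) with DESeq2 and 11 (7 higher, 4 lower) with array weights. It became 0 with only these 2 stages in the fit and without both libraries of lowest depth, where limma had 37 and 33 miRNAs at an unadjusted p under 0.05. Leaving out 1 library gave 0 to 10 calls, 0 to 6 higher and 0 to 4 lower: 0 without impending ovulation 2 or deviation 4 (29 and 24 at an unadjusted p under 0.05), 2 without impending ovulation 1 or deviation 2, and 10 without impending ovulation 4. The other alternatives, namely 2 pseudocounts, 4 filters, 2 scalings, no intensity trend and edgeR under both scalings, kept 1 call, miR-204b. The cause of these moves was not tested. Same-numbered libraries of the 2 stages deviated with correlations of -0.10, 0.03, 0.01 and 0.12 from their stage means, within the -0.21 to 0.24 of different-numbered ones. How alike libraries of 1 mare would be is not known, so this cannot tell whether the numbers pair them. With the replicate block in the fit 1 miRNA passed, miR-204b (adjusted p = 0.0215). The library measures kept their direction and did not pass under any alternative. Over 4 measures, none could pass after adjustment unless at least 3 of them reached the smallest p of 0.0286, so this says nothing about stability.

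Signs turned for 7 of the 63 named miRNAs, none of which was called in any setting. For miR-10a, at -0.02, log2 changes were 0.218 with equal totals, 0.0343 with median-of-ratios scaling, 0.0871 with TMM scaling, 0.0361 with array weights and -0.25 to 0.12 without single libraries. For miR-148a the change was 0.00 with quantile normalization, which ties a miRNA that ranks first in each of the 8 libraries. Array weights gave -0.51 for miR-211 and -0.0543 for miR-96. Leaving out 1 library gave -0.38 to 1.37 for miR-1, -0.65 to 2.06 for miR-132, -0.58 to 2.21 for miR-211, -0.66 to 0.17 for miR-451 and -0.89 to 2.30 for miR-96.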

Other observations

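MiR-204b, miR-206 and miR-9a were all highest in impending ovulation 2, which prompted a look at the 12 libraries of the other 3 stages, chosen after seeing the data. With stage means removed, Pearson r of log2 values was 0.52 for miR-204b and miR-206 (permutation p = 0.0837, adjusted over 3 pairs 0.0878; Spearman 0.45, p = 0.148, adjusted 0.148). For miR-204b and miR-9a it was 0.51 (permutation p = 0.0878, adjusted 0.0878; Spearman 0.51, p = 0.0935, adjusted 0.140), and for miR-206 and miR-9a 0.54 (p = 0.0703, adjusted 0.0878; Spearman 0.56, p = 0.0619, adjusted 0.140). No pair passed, and without the 2 libraries farthest from the median r was 0.35, -0.06 and 0.32.

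Where both arms of a hairpin were members, miR-340 had the clearest gap between stages. The log2 ratio of its 5p to its 3p arm ran from -0.41 to 2.03 at impending ovulation and from 2.37 to 2.96 at deviation, on 59 and 26 reads against 166 and 28. For miR-423 the ratio ran from 3.20 to 3.70 against 2.36 to 3.38, and for the erythroid miR-486 from 5.09 to 8.58 against 4.45 to 5.68. MiR-340 was picked out after its values were seen, and these ratios have no test.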
